A study of Mus musculus with 20 samples.

Results

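The regions described here are the 50305 of 68261 annotated enhancers (73.7%) that received 0 counts in each of the 3 wild-type libraries of the enhancer count table, in a total RNA sequencing study of SIMS cells, a mouse salivary gland line. They were chosen on the wild-type counts alone, so their wild-type level is fixed at 0 by the choice and is not a finding. The rule did not use the counts in the Cas9-edited lines, which are what was compared, but it was set with earlier results of these data known. The study asked which regulatory regions of the genome change in RNA level when Zcchc8 is lost. The groups used were unedited wild type (3 libraries, replicates 2 to 4), Btbd7 KO (4 libraries, the study's negative control) and 3 Zcchc8 KO clones of 4 libraries each, here called clones 1, 2 and 3. Wild-type replicate 1 has gene counts only and enters the gene scaling and the wild-type levels of RNA decay genes. Zcchc8 or Btbd7 was the edited gene in the knockout lines, and all lines were grown in DMEM with 10% FBS. The labels do not say whether the Btbd7 KO cells were 1 clone, nor whether replicates were separate cultures, so the p-values given below measure the spread between these libraries, which may be technical.

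ZCCHC8 is the core protein of NEXT, the nuclear exosome targeting complex, in which it holds the RNA-binding protein RBM7 and the helicase MTREX together. NEXT captures short, mostly unspliced nuclear transcripts soon after they are made and hands them to the RNA exosome, a nuclease complex that degrades RNA from its 3′ end. Enhancer RNAs, the transcripts made at active enhancers, are among its known substrates, together with promoter upstream transcripts. Many annotated enhancers are active in other tissues only, so an enhancer can lack reads because it is not transcribed in a cell, because its RNA is degraded quickly, or because sequencing was too shallow. The enhancer table names each region by an identifier without coordinates, so no position, neighbouring gene or sequence is given for the regions below. Their lengths are likewise not in the table, so counts are compared between libraries and not between enhancers.

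The 3 wild-type libraries held 13876944 to 17771804 counts in genes, and the 16 libraries of the edited lines 6833258 to 17115112. Levels are given as CPM, that is counts per 1e+06 gene counts after TMM scaling, with library sizes taken from the gene table. Over the 3 wild-type libraries a count of 0 allows up to 3 counts, or 0.0629 CPM, for a single enhancer, and this limit covers counting error only. Among the ductal keratins and epithelial genes fixed as markers of the line (such as Krt8, Krt18 and Epcam), 9 of 9 were above 10 CPM in every library. Of 6 acinar markers, Amy1, Dcpp1, Muc19 and Smgc stayed under 1 CPM in every library and 1 was above 10 CPM in every library. Of 5 basal or myoepithelial markers, Krt5, Acta2 and Cnn1 stayed under 1 CPM and 1 was above 10 CPM throughout. The acinar list summed to 109 to 185 CPM and the basal list to 164 to 421 CPM, beside 3256 to 5258 CPM for the ductal list. Of 3 immune markers, Ptprc and Adgre1 stayed under 1 CPM and 1 was above 1 CPM throughout, with a list sum of 4.09 to 13.0 CPM. Of 6 fibroblast markers, Dcn, Lum and Pdgfra stayed under 1 CPM and 1 was above 1 CPM throughout, with a list sum of 10.2 to 35.2 CPM. The neuronal list (Tubb3, Snap25 and Rbfox3) summed to at most 0.274 CPM and the endothelial list to at most 1.15 CPM. Btbd7 RNA was at 99.2 ± 3.23 CPM (SD, n = 4) in Btbd7 KO and at 197 to 211 CPM as the mean of each Zcchc8 clone. Zcchc8 RNA was at 62.3 ± 3.76 CPM (SD, n = 4) in Btbd7 KO and, for clones 1, 2 and 3, at 60.3 ± 4.28, 23.3 ± 1.35 and 54.6 ± 4.84, so its RNA level sets clone 2 far apart and hardly moves in clone 1. The edited sequences were not analysed here.

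Clone 1 replicate 4 stood apart from the other libraries before any comparison. It held counts in 95 of 1672 sensory receptor genes (Olfr, Vmn1r, Vmn2r and Tas2r families) that had no wild-type counts, against 13 to 49 in the other Zcchc8 KO libraries and 15 to 38 in the Btbd7 KO libraries. These are receptors of olfactory, vomeronasal and taste cells, and they serve here as a background of loci outside the line's usual programme. Their summed level was 18.3 CPM in that library, 2.17 to 7.78 CPM in the other Zcchc8 KO libraries and 2.73 to 3.92 CPM in Btbd7 KO. The Btbd7 KO mean was 3.34 ± 0.502 CPM (SD). Zcchc8 KO averaged 5.87 ± 4.36 CPM with clone 1 replicate 4 and 4.73 ± 1.99 CPM without it. Leaving that library out, the averages by clone were 4.90 CPM (clone 1), 3.52 CPM (clone 2) and 5.82 CPM (clone 3). The receptor background was thus higher on average beyond that library, although clone 2 lay close to Btbd7 KO. The part of this background in the enhancer values was not tested. Ratios of summed level and of detection over all clones are given with and without the library. Other values, such as the numbers of enhancers by line and their overlaps, include it unless stated.

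Most of the enhancers without wild-type counts had no counts in the edited lines either. Over the 16 libraries 37152 (73.9%) never received a count and 13153 (26.1%) did. Of the latter, 7865 (59.8%) were counted in exactly 1 library, and 102 gathered at least 50 counts in all. The counts were spread thinly: of 66427 counts, the 10 best-counted enhancers held 2.93% and the 100 best-counted 13.6%. The 12 Zcchc8 KO libraries held 82.0% of these counts and 71.2% of the scaled sequencing depth. Counts fell only in Zcchc8 KO libraries for 8831 enhancers, only in Btbd7 KO libraries for 1727 and in both for 2595, with 12 libraries on the first side and 4 on the second.

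Summed over all 50305 enhancers, the level was higher in Zcchc8 KO than in Btbd7 KO in every library. The 4 Btbd7 KO libraries were at 276, 206, 215 and 214 CPM (replicates 1 to 4), a mean of 228 ± 32.4 (SD, n = 4). Clone 1 was at 418, 419, 397 and 775 CPM, clone 2 at 391, 380, 415 and 367 CPM, and clone 3 at 392, 341, 452 and 462 CPM. The lowest Zcchc8 KO library, clone 3 replicate 2, lay above the highest Btbd7 KO library, so the groups did not overlap. The mean over the 12 Zcchc8 KO libraries was 434 ± 113 CPM (SD, n = 12), which is 1.90 times the Btbd7 KO mean. Without clone 1 replicate 4 the mean was 403 ± 35.4 CPM and the ratio 1.77, and the mean of clone 1 went from 503 ± 182 to 412 ± 12.4 CPM. No test is given for this sum, since the enhancers were chosen as a set with results of these data known. As a share of all enhancer counts these regions made up 0.528% to 0.679% in Btbd7 KO and 0.848% to 1.83% in Zcchc8 KO. Without clone 1 replicate 4 the highest Zcchc8 KO share was 1.13%.

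**Figure D1:**
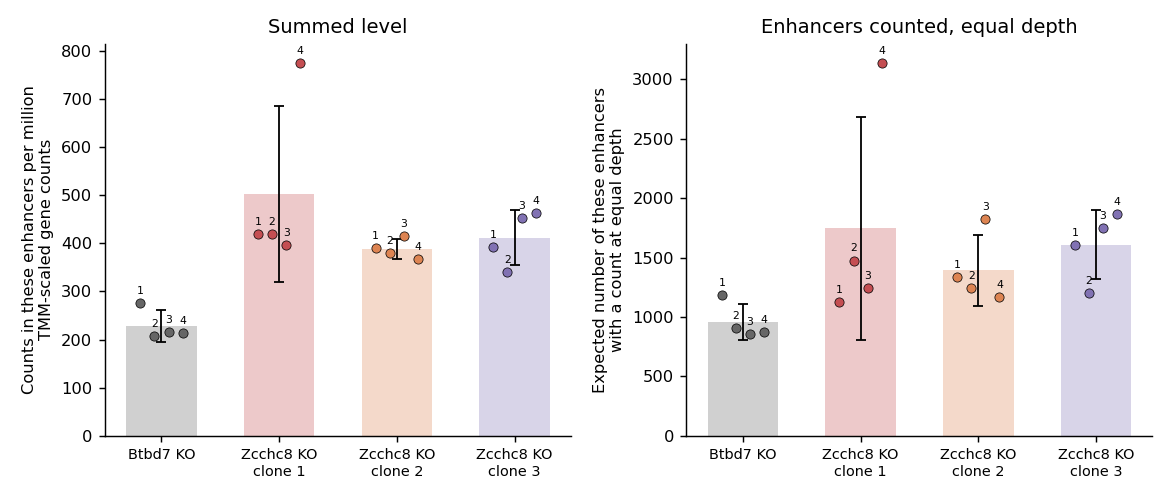
Left, the summed level of the 50305 enhancers (CPM on TMM-scaled gene counts), and right, the expected number of them with at least 1 count when each library is thinned to 6833258 gene counts. Bars are means, error bars are SDs over 4 libraries and points are libraries with their replicate numbers; all Zcchc8 KO libraries lie above the Btbd7 KO libraries on the left, whereas Btbd7 KO replicate 1 overlaps them on the right, and clone 1 replicate 4 is the highest point in both.

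More of these enhancers were also detected in Zcchc8 KO, with some overlap between libraries. The raw number with at least 1 count was 1934, 1422, 961 and 1193 in the Btbd7 KO replicates. It was 1163, 1529, 1243 and 3372 in clone 1, 1358, 1630, 3108 and 1550 in clone 2, and 2378, 1284, 1859 and 2846 in clone 3. These numbers depend on depth, and clone 1 was the shallowest line, so each library was also reduced by calculation to the lowest gene total, 6833258 counts. At that depth Btbd7 KO libraries would detect 1181, 907, 860 and 875 of the enhancers (mean 956 ± 151, SD, n = 4). The Zcchc8 KO libraries would detect 1123 to 3141, with a mean of 1582 ± 559 (SD, n = 12). The ratio of the means was 1.65, or 1.51 without clone 1 replicate 4. Btbd7 KO replicate 1 lay above 2 Zcchc8 KO libraries, clone 1 replicate 1 and clone 2 replicate 4 (1168), and the other Btbd7 KO replicates lay below all 12.

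The difference between the lines was wider for enhancers seen again in replicate libraries than for single sightings. In the pooled libraries of each line, 3450 enhancers were counted in exactly 1 library of Btbd7 KO, against 4423 in clone 1, 3752 in clone 2 and 4073 in clone 3. Counts in all 4 libraries of a line were found for 54 enhancers in Btbd7 KO, 131 in clone 1, 201 in clone 2 and 228 in clone 3. The gene counts behind these numbers were 53118546 for Btbd7 KO, 29333926 for clone 1, 51959841 for clone 2 and 43764300 for clone 3, so every clone showed more repeat detections than Btbd7 KO from fewer reads. In clone 1 the single sightings include those of replicate 4, which alone counted 3372 enhancers. No test was made of the difference between single and repeated sightings.

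**Figure D2:**
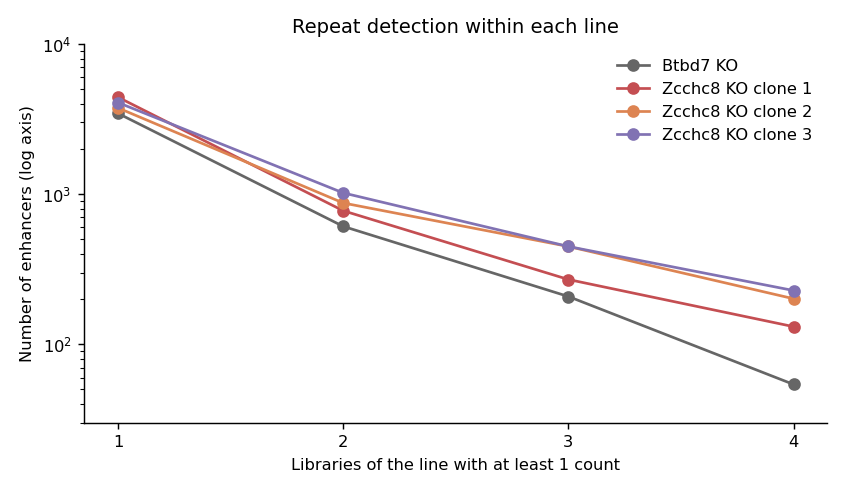
Number of the 50305 enhancers (log axis) counted in exactly 1, 2, 3 or 4 of the 4 libraries of each line. The lines lie close together at 1 library (3450 to 4423 enhancers) and apart at 4 libraries, where Btbd7 KO has 54 and the Zcchc8 KO clones 131, 201 and 228.

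Most enhancers counted in all 4 libraries of a clone also had a count in the other clones, and most had one in Btbd7 KO too. Of the 131 enhancers counted in all 4 libraries of clone 1, 6 had no count in clone 2 and 3 had none in clone 3, whereas 50 (38.2%) had none in Btbd7 KO. For the 201 of clone 2, 28 had none in clone 1, 12 none in clone 3 and 60 (29.9%) none in Btbd7 KO. The 228 of clone 3 included 25 with none in clone 1, 21 with none in clone 2 and 59 (25.9%) with none in Btbd7 KO. In the other direction, of the 54 counted in all 4 Btbd7 KO libraries, 11, 9 and 5 had none in clones 1, 2 and 3. Detection in all 4 libraries at once was shared less: clones 1 and 2 had 63 enhancers in common (48.1% of the former's and 31.3% of the latter's), clones 1 and 3 had 63 (48.1% and 27.6%), and clones 2 and 3 had 68 (33.8% and 29.8%). With the 54 of Btbd7 KO, clones 1, 2 and 3 had 4, 8 and 14 in common. The same shares were not worked out over all enhancers, and the lines differed in depth, so these overlaps are given as a description.

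In total 404 enhancers were counted in all 4 libraries of at least 1 clone, of which 286 were so in 1 clone, 80 in 2 and 38 in all 3 clones. These 38 are the enhancers with counts in each of the 12 Zcchc8 KO libraries. Of them, 8 had no count in any Btbd7 KO library, 11 had 1 to 3 counts there, and 1, ENSMUSR00000544076, was counted in all 16 libraries. These numbers, too, were not worked out over all enhancers and are given as a description. The 8 were ENSMUSR00000735167, ENSMUSR00000029680, ENSMUSR00000498780, ENSMUSR00000561578 and ENSMUSR00000483270, described below, and ENSMUSR00000757596, ENSMUSR00000007785 and ENSMUSR00000740491, which were singled out here after their values were seen and held 86, 83 and 78 counts.

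Single enhancers were tested with edgeR's quasi-likelihood test over the 4 Btbd7 KO and 12 Zcchc8 KO libraries, fitted on the whole enhancer table, with Benjamini-Hochberg adjustment over all enhancers tested. The wild-type libraries stayed out of this fit. With no filter beyond 1 count in any of the 16 libraries, 13153 of the enhancers without wild-type counts were tested. Against Btbd7 KO, 74 of them rose in the mean of the clones at an adjusted p under 0.05 (0.563%) and 15 fell (0.114%). Over all 29954 enhancers with a count, 3.62% rose and 1.07% fell in the same fit. The 74 held 33 to 259 Zcchc8 KO counts, median 74, all were counted in each of the 3 clones, and 47 had no Btbd7 KO count. At this depth a difference was not detectable for most of the 13153, of which 7865 were counted in a single library.

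edgeR's low-count filter, about 1.01 CPM in at least 4 libraries, left 7082 enhancers, of which only 29 were without wild-type counts. Of these 29, 28 rose and 0 fell in the mean of the clones, where 16.9% of all tested enhancers rose and 5.82% fell. In clone 1 the count was 27 higher and 0 lower (13.7% and 5.45% of all tested), in clone 2 28 and 0 (14.2% and 4.83%) and in clone 3 28 and 0 (13.8% and 3.37%). At an unadjusted p under 0.05, 29 were higher and 0 lower for the mean, and DESeq2 called 29 higher and 0 lower. An enhancer this sparse passes the filter only if a group lifts it, so these counts describe which enhancers passed and lend no weight of their own. The enhancer that did not pass the test was ENSMUSR00000656074, with 15 counts in Btbd7 KO and 127 in Zcchc8 KO (log2 fold change 1.49, adjusted p = 0.0684 in edgeR).

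The levels behind these calls were low. The 29 enhancers had mean levels of 0 to 0.280 CPM in Btbd7 KO (median 0.0498) and 0.642 to 2.07 CPM in Zcchc8 KO (median 1.04). In Btbd7 KO 10 of them had no count, 9 had 1 to 3 counts and 10 had more, with 15 counts at most. These levels, too, follow from a filter that the enhancers passed through their Zcchc8 KO libraries. The number called moved with the libraries used, as did the number of these enhancers that passed the filter. It was 44 without Btbd7 KO replicate 3, 43 without clone 1 replicate 1, 45 without clone 1 replicate 4, 45 without clone 3 replicate 2, 61 when wild-type replicate 2 took no part in the choice, 11 without clone 2 and 18 without clone 3, and 0 were lower in each of these.

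Separation of the groups was also counted without a filter. Over the 13153 counted enhancers without wild-type counts, 20 had every Zcchc8 KO library above every Btbd7 KO library and 3 had every Zcchc8 KO library below, on the CPM scale. Over all 29954 counted enhancers there were 474 (1.58%) and 132 (0.441%), so both kinds were rarer among those without wild-type counts. Separation upward needs a count in each Zcchc8 KO library, so the 20 are given as a description. In the sparse enhancers a single 0 in Zcchc8 KO is enough to prevent separation upward, while 4 counted Btbd7 KO libraries are needed for it downward.

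The clearest case was ENSMUSR00000735167, which is shown because it combined the largest fitted increase with even counts. It had 0 counts in all 4 Btbd7 KO libraries, 20, 20, 19 and 20 counts in clone 1, 7, 9, 22 and 17 in clone 2, and 26, 13, 12 and 27 in clone 3. Each of the 12 Zcchc8 KO libraries was thus above all Btbd7 KO libraries, with means for clones 1, 2 and 3 of 2.65 ± 0.0933, 1.01 ± 0.274 and 1.71 ± 0.158 CPM (SD, n = 4 each). The level was at least 28.5-fold higher than in Btbd7 KO, taking 3 counts over the 4 Btbd7 KO libraries as the floor (edgeR adjusted p = 3.02e-12). Against the wild-type floor of 3 counts over 3 libraries it was at least 26.4-fold higher, a value that the choice of enhancers shaped and that is given as a description. The clones did not differ at the threshold (edgeR adjusted p = 0.0802). Without the low-count filter ENSMUSR00000735167 had an adjusted p of 1.97e-14 against Btbd7 KO (edgeR). Adjusted p-values of the named enhancers come from the filtered fit unless stated otherwise. These enhancers passed the filter through their Zcchc8 KO libraries, and many were named for their rise. Their adjusted p-values also treat the libraries of a line as replicates, so they are given as descriptions. With lines in place of libraries as replicates, the adjusted p was larger for every named enhancer tested.

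ENSMUSR00000498780 had the same absence from Btbd7 KO with wider spread in the clones. Its counts were 15, 11, 8 and 7 in clone 1, 1, 27, 19 and 13 in clone 2, and 30, 4, 17 and 39 in clone 3, against 0 in every Btbd7 KO library. No Zcchc8 KO library was empty, and the highest and lowest came from different clones. The level was at least 25.7-fold higher than the Btbd7 KO floor (edgeR adjusted p = 1.31e-09), with no call between clones (adjusted p = 0.564).

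Among the 10 tested enhancers that rose from no count in Btbd7 KO, the naming rule further took these without a call between clones: ENSMUSR00000561578, ENSMUSR00000483270, ENSMUSR00000634973, ENSMUSR00000485135 and ENSMUSR00000657420. ENSMUSR00000561578 had 16, 18, 3 and 8 counts in clone 1, 6, 1, 18 and 7 in clone 2 and 14, 10, 18 and 29 in clone 3 (at least 19.9-fold, edgeR adjusted p = 8.42e-08). ENSMUSR00000483270 had 8, 7, 1 and 6, then 7, 26, 10 and 20, then 15, 10, 7 and 10 in clones 1, 2 and 3 (at least 17.1-fold, edgeR adjusted p = 6.32e-07). Both were counted in all 12 Zcchc8 KO libraries. The other three each had 1 empty Zcchc8 KO library, always in clone 2, and so were not separated from Btbd7 KO library by library. ENSMUSR00000634973 was at least 16.1-fold higher (edgeR adjusted p = 3.35e-06), with 0 counts in clone 2 replicate 1 and up to 25 elsewhere. ENSMUSR00000485135 (at least 10.9-fold, edgeR adjusted p = 9.62e-05) and ENSMUSR00000657420 (at least 10.8-fold, edgeR adjusted p = 0.0002) were empty in clone 2 replicate 4 and held up to 16 and 17 counts.

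A further set rose from a single count in Btbd7 KO. ENSMUSR00000746551 had 0, 1, 0 and 0 counts in the Btbd7 KO replicates and 1 to 31 counts in the Zcchc8 KO libraries (median 10.5). ENSMUSR00000350775 had 0, 0, 1 and 0 against 1 to 23 (median 11.5), and ENSMUSR00000729591 had 0, 1, 0 and 0 against 2 to 29 (median 7.5). All 3 were counted in each Zcchc8 KO library and, in CPM, each Zcchc8 KO library exceeded each Btbd7 KO library. The ratio of pooled levels was 54.9 for ENSMUSR00000746551 with a counting interval of 9.69 to 2184 (edgeR adjusted p = 1.57e-06). It was 53.3 for ENSMUSR00000350775 (9.40 to 2121, edgeR adjusted p = 3.07e-06) and 53.7 for ENSMUSR00000729591 (9.47 to 2137, edgeR adjusted p = 4.05e-06). These wide 95% intervals come from resting on 1 Btbd7 KO count, and they cover counting error only.

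Of the 6 enhancers with the most counts in all, 3 had no count in Btbd7 KO (ENSMUSR00000735167, ENSMUSR00000029680 and ENSMUSR00000498780) and 3 had a few there. ENSMUSR00000610536 held the most counts over the 16 libraries, 264. It had 0, 3, 0 and 2 counts in Btbd7 KO, 21, 21, 20 and 15 in clone 1, 4, 30, 24 and 61 in clone 2, and 7, 12, 20 and 24 in clone 3. Its mean levels were 0.0920 ± 0.107 CPM in Btbd7 KO and 2.60 ± 0.462, 2.07 ± 1.57 and 1.55 ± 0.839 CPM in clones 1, 2 and 3 (SD, n = 4 each), with no overlap between the groups. Zcchc8 KO was higher by 4.23 on the log2 scale (SE 0.57, edgeR adjusted p = 1.23e-09), a 20.9-fold ratio of pooled levels.

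ENSMUSR00000524560 had 0, 3, 3 and 0 counts in Btbd7 KO, 15, 13, 13 and 8 in clone 1, 18, 5, 43 and 29 in clone 2, and 19, 9, 12 and 49 in clone 3. Its groups overlapped on the CPM scale, with Btbd7 KO replicate 3 (0.372 CPM) just above clone 2 replicate 2 (0.356 CPM). Zcchc8 KO was higher by 3.77 on the log2 scale (SE 0.57, edgeR adjusted p = 6.1e-08). ENSMUSR00000618696 had 0, 1, 0 and 2 counts in Btbd7 KO and 5 to 28 in the Zcchc8 KO libraries (median 18), with no overlap. Its pooled ratio was 28.0 (counting interval 9.45 to 137, edgeR adjusted p = 1.61e-09).

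**Figure D3:**
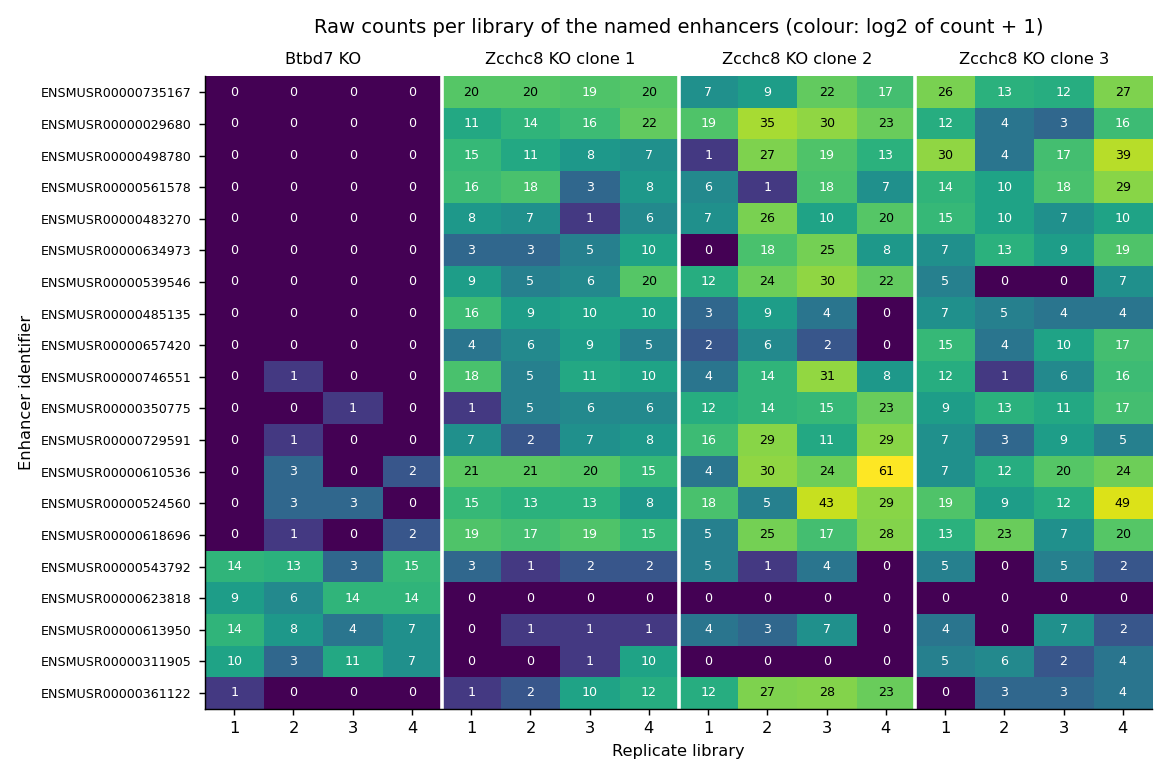
Raw counts of the 20 named enhancers (rows) in the 16 libraries of the edited lines (columns, by line and replicate), with colour giving log2 of the count plus 1. The upper rows are empty or nearly empty in Btbd7 KO and filled across the 3 Zcchc8 KO clones, the 4 rows with the most Btbd7 KO counts show the reverse or a mixed picture, and libraries differ in depth, so colours are not levels.

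Levels differed between the Zcchc8 KO clones for 3 of the 29 tested enhancers (10.3%), by edgeR's test with 2 degrees of freedom. This was near the 7.46% of all 7082 tested. The 4 libraries of 1 high clone are enough to pass the low-count filter, so the 3 are given as descriptions. ENSMUSR00000539546 had 0 counts in every Btbd7 KO library, 9, 5, 6 and 20 in clone 1, 12, 24, 30 and 22 in clone 2, and 5, 0, 0 and 7 in clone 3. Clone 2 was the highest at 1.65 ± 0.0899 CPM, clone 1 was at 1.32 ± 0.846 and clone 3 at 0.208 ± 0.245 (SD, n = 4 each; adjusted p = 0.00908 between clones in edgeR). It was still at least 18.8-fold higher in Zcchc8 KO as a whole (edgeR adjusted p = 2e-06).

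ENSMUSR00000361122 showed the same order of clones. Its Btbd7 KO counts were 1, 0, 0 and 0, with 1, 2, 10 and 12 in clone 1, 12, 27, 28 and 23 in clone 2, and 0, 3, 3 and 4 in clone 3. Clone 2 was at 1.69 ± 0.159 CPM, clone 1 at 0.844 ± 0.746 and clone 3 at 0.258 ± 0.179 (SD, n = 4 each; adjusted p = 0.0148 between clones in edgeR). Against Btbd7 KO, clone 3 alone missed the threshold (edgeR adjusted p = 0.0648), and with lines in place of libraries as replicates the mean of the clones missed it too (edgeR adjusted p = 0.0598).

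ENSMUSR00000029680 had 0 counts in every Btbd7 KO library, 11, 14, 16 and 22 in clone 1, 19, 35, 30 and 23 in clone 2, and 12, 4, 3 and 16 in clone 3. Clones 1 and 2 were at 2.11 ± 0.585 and 2.10 ± 0.523 CPM, and clone 3 was lower at 0.707 ± 0.324 (SD, n = 4 each; adjusted p = 0.0451 between clones in edgeR). The level in Zcchc8 KO was at least 27.6-fold higher than in Btbd7 KO (edgeR adjusted p = 4.73e-11). In all 3 enhancers that differed between clones, clone 3 had the lowest level, which describes these 3 only.

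A few enhancers without wild-type counts went the other way and were counted mainly in Btbd7 KO. ENSMUSR00000543792 had the most Btbd7 KO counts, 14, 13, 3 and 15, and 0 to 5 counts in the Zcchc8 KO libraries. Its mean levels were 0.836 ± 0.366 CPM in Btbd7 KO and 0.265 CPM over the 12 Zcchc8 KO libraries, it did not pass the low-count filter, and it was not among the 15 lower calls made without that filter. ENSMUSR00000613950 had 14, 8, 4 and 7 counts in Btbd7 KO and 0 to 7 in Zcchc8 KO, and was not called either. ENSMUSR00000311905 had 10, 3, 11 and 7 in Btbd7 KO, none in clone 2, 0, 0, 1 and 10 in clone 1 and 5, 6, 2 and 4 in clone 3, and was lower in the fit without the filter (edgeR adjusted p = 0.0196).

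ENSMUSR00000623818 was the plainest case, with 9, 6, 14 and 14 counts in Btbd7 KO and 0 in all 12 Zcchc8 KO libraries. Its Btbd7 KO level was 0.965 ± 0.617 CPM (SD, n = 4), and in Zcchc8 KO it was at least 35.5-fold lower, taking 3 counts over the 12 libraries as the floor (edgeR without the low-count filter, adjusted p = 1.46e-08). The next identifiers on either side behaved likewise and were singled out after their values were seen. ENSMUSR00000623817 had 9, 1, 2 and 6 counts in Btbd7 KO and ENSMUSR00000623819 had 10 in all, and both had 0 in all 12 Zcchc8 KO libraries (edgeR without the filter, adjusted p = 0.00154 and 0.0323). Whether the 3 lie side by side in the genome cannot be read from the table.

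The higher level in Zcchc8 KO was not particular to enhancers with 0 wild-type counts. Just outside the choice, the 1735 enhancers with 1 wild-type count had a Zcchc8 KO to Btbd7 KO ratio of summed levels of 1.71, and the 1142 with 2 counts a ratio of 1.90. Detection changed sharply at that edge, since 8.59% of the enhancers with 0 wild-type counts had a count in the pooled Btbd7 KO libraries, against 40.1% of those with 1 and 54.6% of those with 2. Without clone 1 replicate 4 the ratios for 0, 1, 2 and 3 wild-type counts were 1.77, 1.67, 1.89 and 1.77, so they had no order at this edge. From there on the ratio became smaller with more wild-type counts: it was 1.80 for 1 to 3 counts, 1.67 for 4 to 9, 1.50 for 10 to 29, 1.34 for 30 to 99 and 0.971 for 100 or more. Without that library it was 1.78, 1.66, 1.49, 1.34 and 0.970 in the same groups, and the order from 1 to 3 counts upward was the same in each clone. The wild-type libraries that order the groups are in neither side of the ratio. Their counts are not independent of it, since detection in Btbd7 KO rose with the wild-type count. How far this sorting shapes the ratios was not tested, and no test was made over the groups of enhancers.

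**Figure D4:**
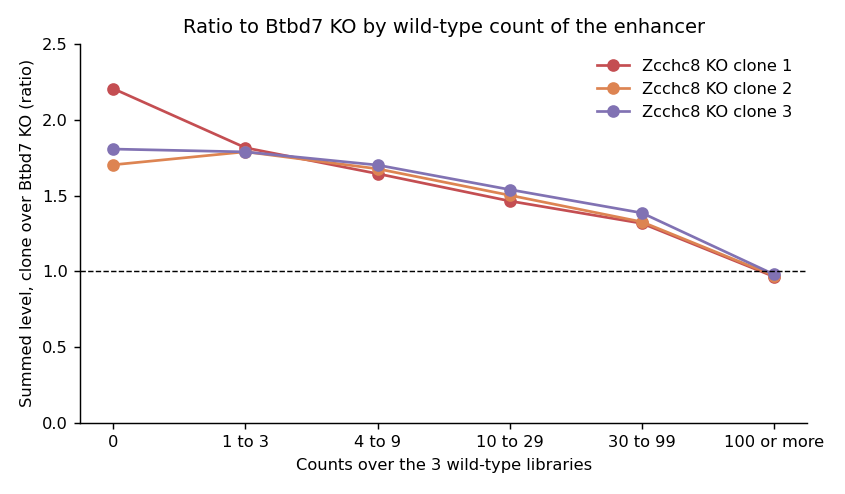
Summed level in each Zcchc8 KO clone divided by that in Btbd7 KO (vertical axis, ratio; dashed line at 1), for enhancers grouped by their counts over the 3 wild-type libraries (horizontal axis). Clone 1 is at 2.20 at 0 counts, or 1.81 without its replicate 4, the other clones lie close together, and the ratio over all clones goes from 1.80 at 1 to 3 counts to 0.971 at 100 or more.

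The same choice applied to the other feature tables gave much the same ratio. Features with 0 counts in the 3 wild-type libraries had Zcchc8 KO to Btbd7 KO ratios of summed level of 1.92 for CTCF binding sites, 1.85 for promoter flanking regions, 1.88 for open chromatin regions, 1.86 for promoters and 1.94 for transcription factor binding sites. For the 34163 genes without wild-type counts the ratio was 1.80. Without clone 1 replicate 4 these became 1.82, 1.69, 1.79, 1.68, 1.82 and 1.70 in the same order, beside 1.77 for enhancers. The enhancer ratio thus lay within the range of the other tables. Repeat detection was not particular to enhancers either, as every clone had more features counted in all 4 libraries than Btbd7 KO in each table. For CTCF binding sites these were 89 in Btbd7 KO and 247, 391 and 421 in clones 1, 2 and 3. For genes they were 55, against 123, 174 and 165. Features of different tables may overlap in the genome and share reads, so the tables are not independent of each other.

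**Figure D5:**
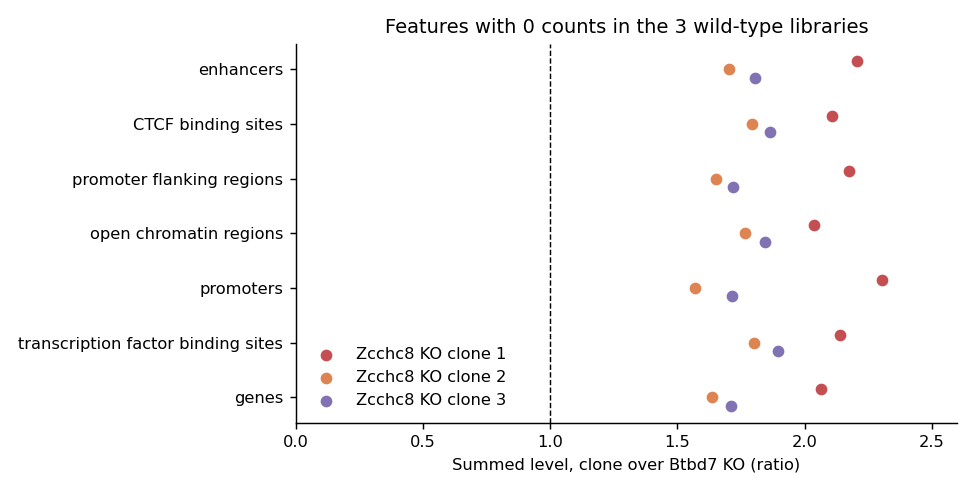
Ratio of the summed level in each Zcchc8 KO clone to Btbd7 KO (horizontal axis; dashed line at 1) for features with 0 counts in the 3 wild-type libraries, by feature table. All points lie above 1, and clone 1, with its replicate 4 included, is the highest in every table. Without that library clone 1 is at 1.81 for enhancers, beside 1.81 for clone 3. The enhancers (1.90 over all clones) sit among the other tables (1.80 to 1.94).

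Among genes of nuclear RNA decay, fixed as a list with results of these data known, 2 of 22 tested rose and 9 fell against Btbd7 KO, leaving out Zcchc8 itself, where 24.5% of all 14371 tested genes were higher and 28.5% lower. The median log2 fold change of the list was -0.16, beside -0.02 for all genes. Of the NEXT subunits, Mtrex, the helicase, was at 143 ± 3.52 CPM in Btbd7 KO and fell by 0.24 on the log2 scale (edgeR adjusted p = 7.7e-06), and Rbm7, the RNA-binding subunit, was at -0.07 on that scale (edgeR adjusted p = 0.37). Zfc3h1, the scaffold of the PAXT connection, which hands polyadenylated nuclear RNA to the exosome, rose by 0.30 against Btbd7 KO (edgeR adjusted p = 4.98e-07). Its wild-type level of 132 ± 12.7 CPM lay within the clone means of 123 to 147, and Btbd7 KO was at 111 ± 1.25 (SD). Wild-type gene levels in this paragraph include wild-type replicate 1, which the enhancer comparison does not. Srrt, which links the cap-binding complex to NEXT, rose by 0.39 (edgeR adjusted p = 3.28e-10). It was at 181 ± 7.48 CPM in wild type (SD) and 237 to 273 as clone means. The exosome subunit Exosc1 fell by 0.63 and the nuclease Dis3 fell by 0.34 on the log2 scale (edgeR adjusted p = 1.95e-11 and 6.73e-08). Exosc1 was at 48.2 ± 4.61 CPM in wild type, 60.0 ± 3.09 in Btbd7 KO (SD) and 36.6 to 40.3 as clone means. The part of these genes in the enhancer levels was not tested.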

How the data were processed

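Total RNA of SIMS cells was taken up in TRIzol, purified on spin columns and made into libraries with the Illumina TruSeq Stranded Total RNA kit, per the labels' protocols. FastQC and STAR 2.7.3a are named in the submitters' processing notes. The counter, genome build, annotation, strand setting and rule for shared reads are not given in the sources used here, so a count may include reads of an overlapping transcript. The authors deposited raw counts, whole numbers per feature and library. Enhancer counts cover 19 libraries and gene counts 20, and wild-type replicate 1 was not analysed here for enhancers.

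Members and lists were chosen with earlier results of these data known. Enhancers with 0 counts in the 3 wild-type libraries were taken. edgeR 4.0.16 (R 4.3.3; glmQLFit, glmQLFTest, filterByExpr with a minimum count of 10 and total of 15) was fitted to the 16 edited libraries over the whole enhancer table, with library sizes and TMM factors from the gene table, and an adjusted p under 0.05 was called. Equal-depth detection is the binomial expectation. A fold against 0 counts used a floor of 3 counts over the group, and a ratio resting on 1 to 3 counts has an exact 95% interval. No molecular identifiers are named in the sources used here, so floors and intervals cover counting error only.

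Named enhancers are those called alike for the mean and for every single clone, averaging 5 counts or more per library, the 12 with the largest and 6 with the lowest log2 fold change (none qualified as lower), plus the 6 with the most counts, the 4 with the most Btbd7 KO counts, and up to 2 for each clone among those called between clones (none was highest in clone 3). On simulated counts for enhancers, Zcchc8 KO mean minus Btbd7 KO, run on 15162 enhancers with 200 changed, the fit recovered 82% of 4-fold and 65% of 2-fold changes, and 2% of calls were false. The changed enhancers were drawn only from well-counted ones. Most enhancers without wild-type counts have far fewer counts, so these rates do not carry over to them. No replicate pair agreed within sampling noise (chi-square over its degrees of freedom was 2.89 to 78.6 in 30 pairs), so none was merged. Depth ranged from 6833258 to 17115112 gene counts in the edited libraries, which limits single enhancers to a few counts each. Alternatives covered filters, scaling, DESeq2 1.42.0, the libraries fitted, the replicate block, a fold threshold, lines as replicates, other choices of enhancers, and leaving out each library or clone.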

Additional observations from a re-analysis of the deposited data

Results flagged for a closer look

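Groups of 4 libraries were checked for a highest or lowest library whose gap to its neighbour took more than 0.829 of the group's range (Dixon's limit). Of 88 such groups 13 passed. The usual rate of about 1 in 20 does not apply to counts this sparse. Empty groups cannot pass, and a single counted library beside 3 empty ones always does. For the summed level, Btbd7 KO replicate 1 (276 CPM) and clone 1 replicate 4 (775 CPM) stood above the other libraries of their lines, and Btbd7 KO replicate 1 also did so in detection at equal depth (1181 enhancers). In Btbd7 KO 4 of the others are a single count beside 3 empty libraries: ENSMUSR00000746551 (0.0664 CPM), ENSMUSR00000350775 (0.124 CPM), ENSMUSR00000729591 (0.0664 CPM) and ENSMUSR00000361122 (0.0603 CPM). In clone 1, ENSMUSR00000729591 was low in replicate 2 (0.271 CPM), ENSMUSR00000610536 was low in replicate 4 (1.91 CPM), ENSMUSR00000613950 was at 0 in replicate 1, and ENSMUSR00000311905 was high in replicate 4 (1.27 CPM). In clone 2, ENSMUSR00000729591 was low in replicate 3 (0.627 CPM) and ENSMUSR00000361122 was high in replicate 2 (1.92 CPM).

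The 3 enhancers whose level differed between the clones by edgeR's test were ENSMUSR00000539546 (adjusted p = 0.00908), ENSMUSR00000361122 (adjusted p = 0.0148) and ENSMUSR00000029680 (adjusted p = 0.0451).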

How the results depend on the processing

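The ratio of summed levels stayed between 1.65 (scaled within the enhancer table) and 2.05 (without Btbd7 KO replicate 1), and the detection ratio between 1.51 (without clone 1 replicate 4) and 1.96 (at least 2 counts), over all settings run. Scaling within the table moved the median of all enhancers from 0.17 to -0.05 on the log2 scale and the share of calls that were higher from 74.4% to 46.5% (there 24 enhancers without wild-type counts passed the filter, which their Zcchc8 KO libraries set). Counts of calls moved more. Without the low-count filter 74 were higher and 15 lower for the mean, 81 and 1 in clone 1, 64 and 4 in clone 2, 64 and 1 in clone 3, and 10 differed between clones. With all 19 libraries in the fit, 49 were higher and 1 lower for the mean, 50 higher in clone 1, and 45 higher and 1 lower in clone 2. DESeq2 called 8 between clones. Without clone 2 there were 11 higher, and without clone 3 there were 18, as fewer enhancers passed the filter. Leaving out 1 library gave 21 to 61 higher for the mean (61 without wild-type replicate 2), 23 to 44 in clone 1, 21 to 40 in clone 2, 20 to 39 in clone 3, 2 to 6 between clones (6 without clone 1 replicate 1, clone 2 replicate 1, clone 3 replicate 2 or clone 3 replicate 3, 5 without clone 1 replicate 2), and 0 lower in each. Clone 1 had 41 to 44 without its replicate 1, 3 or 4 or Btbd7 KO replicate 3. Replicate numbers did not pair the libraries (same-number correlations -0.050 to 0.034, and 2 of 16 libraries correlated best with their own number); with the replicate block 28 were higher and 0 lower for the mean and 2 differed between clones. Detection without a clone, and the other tables and the grouping by wild-type count without clone 1 replicate 4, were chosen after seeing the data.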
